A study of Mus musculus with 24 samples.

Results

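The 10 genes described here are the interleukin-1 family ligands Il1a, Il1b, Il18 and Il33, the antagonist Il1rn, the ligand-binding receptors Il1r1, Il1rl1 and Il18r1, and the accessory receptors Il1rap and Il18rap. They were taken by symbol from the 21669 genes of the deposited read-count table, and all 10 were found there. RNA was sequenced at the end of a migration assay from 2 mouse cell lines. K-Luc is a luciferase-expressing glioma line derived from KR158B cells of C57BL/6 origin, and RAW-Blue is RAW 264.7 macrophages with a stably integrated secreted alkaline phosphatase reporter for NF-κB and AP-1. Each line had 5 groups. The untreated group received water. The CpG group received the oligonucleotide CpG-28, the SWNT/LP group single-walled carbon nanotubes dispersed in lipid-PEG (Lipid-PEG2000-OMe), and the CpG+SWNT/LP group both of these, not joined. The SWNT/CpG group received nanotubes dispersed in CpG-28 itself. Every ingredient was at 10 µg/mL. After cells had adhered for 24 h, K-Luc were treated for 17 to 19 h and RAW-Blue for 47 to 50 h. There were 2 libraries of untreated K-Luc, 3 of each treated K-Luc group and 2 of each RAW-Blue group.

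Several features of the design limit the comparisons. K-Luc cells were plated inside and outside the culture insert and RAW-Blue cells inside its chambers alone, so line, treatment time and plating cannot be told apart. A control oligonucleotide lacking CpG was not among the groups, and the CpG motif and DNA as such cannot be told apart. Per the labels, 3 K-Luc libraries (replicate 1 of untreated, CpG+SWNT/LP and SWNT/CpG) belong to run 1 and all others to run 2. Nothing in the labels gives the replicates as separate cultures. The p-values then measure only how these samples spread, which may be technical. The 4 comparisons of treatments with untreated in each line share the same 2 untreated libraries.

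Interleukin-1α and interleukin-1β both signal through IL1R1, which recruits the accessory chain IL1RAP, while IL1RN occupies IL1R1 without recruiting it. Interleukin-33 binds ST2, the product of Il1rl1, which also pairs with IL1RAP, and interleukin-18 binds IL18R1, which pairs with IL18RAP. All these receptors signal through MYD88 and IRAK kinases to NF-κB and MAP kinases, the adaptor route that Toll-like receptor 9 also uses for CpG DNA, and interleukin-1β and interleukin-18 are made as precursors that caspase-1 cleaves in inflammasomes. Macrophages are a major source of interleukin-1β and of its antagonist.

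The sequences before the start sites of the genes that the results turn on are shown first. They are the 250 bases before each start site, 5′ to 3′, from RefSeq in the GRCm38.p6 build, and all 10 genes had an entry. The files themselves were made on the mm9 build, and no coordinate is carried from one to the other. Il1rn, the antagonist gene whose level rose in RAW-Blue cells under every treatment, has its most upstream RefSeq start at chr2:24336610-24336859 (plus strand) and its most downstream one at chr2:24345121-24345370 (plus strand). Il1a and Il1b, next to each other on the same chromosome, lie at chr2:129309973-129310222 and chr2:129371140-129371389 (minus strand). Il1rl1 and Il18rap, the receptor genes that fell in K-Luc cells, lie on chromosome 1 in a run of receptor genes in the order Il1r2, Il1r1, Il1rl2, Il1rl1, Il18r1 and Il18rap. The start sites of Il1rl1 follow chr1:40429320-40429569 and chr1:40439379-40439628, and that of Il18rap follows chr1:40515112-40515361 (all plus strand). Capitals mark matches, on either strand, to an NF-κB motif (GGG, any 2 bases, then TTTCC), an AP-1 motif (TGANTCA) or a PU.1 motif (GAGGAAGT).
Il1rn, upstream start: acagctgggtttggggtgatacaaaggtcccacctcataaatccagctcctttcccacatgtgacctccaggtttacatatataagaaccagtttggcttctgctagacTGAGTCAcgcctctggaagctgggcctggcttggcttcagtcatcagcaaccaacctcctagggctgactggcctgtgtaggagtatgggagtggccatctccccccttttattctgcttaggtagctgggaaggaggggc
Il1rn, downstream start: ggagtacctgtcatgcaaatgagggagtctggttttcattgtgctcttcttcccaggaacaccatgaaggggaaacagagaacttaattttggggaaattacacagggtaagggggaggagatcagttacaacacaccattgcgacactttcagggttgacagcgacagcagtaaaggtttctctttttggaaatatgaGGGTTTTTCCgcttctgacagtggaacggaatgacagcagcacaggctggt
Il1a: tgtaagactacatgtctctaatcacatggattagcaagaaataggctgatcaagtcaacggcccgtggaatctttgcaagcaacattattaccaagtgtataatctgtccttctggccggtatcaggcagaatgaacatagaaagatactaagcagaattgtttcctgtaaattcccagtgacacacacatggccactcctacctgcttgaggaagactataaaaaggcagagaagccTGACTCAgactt
Il1b: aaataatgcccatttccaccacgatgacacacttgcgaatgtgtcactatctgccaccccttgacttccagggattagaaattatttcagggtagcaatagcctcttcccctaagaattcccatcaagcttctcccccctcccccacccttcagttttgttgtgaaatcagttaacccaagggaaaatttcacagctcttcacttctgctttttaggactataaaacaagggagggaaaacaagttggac
Il1rl1, upstream start: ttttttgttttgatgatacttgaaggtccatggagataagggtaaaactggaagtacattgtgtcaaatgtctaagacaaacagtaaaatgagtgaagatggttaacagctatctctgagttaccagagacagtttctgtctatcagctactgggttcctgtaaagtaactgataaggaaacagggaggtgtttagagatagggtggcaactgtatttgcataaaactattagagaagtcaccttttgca
Il1rl1, downstream start: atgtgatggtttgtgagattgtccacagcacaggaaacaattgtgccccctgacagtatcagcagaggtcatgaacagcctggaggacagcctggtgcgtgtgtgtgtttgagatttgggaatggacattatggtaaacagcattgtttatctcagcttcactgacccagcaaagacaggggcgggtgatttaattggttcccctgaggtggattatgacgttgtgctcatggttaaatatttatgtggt
Il18rap: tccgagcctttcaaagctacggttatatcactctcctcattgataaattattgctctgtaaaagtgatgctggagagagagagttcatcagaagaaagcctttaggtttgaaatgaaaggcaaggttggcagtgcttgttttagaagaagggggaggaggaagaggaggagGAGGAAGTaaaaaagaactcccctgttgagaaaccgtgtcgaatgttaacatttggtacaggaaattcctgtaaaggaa
The upstream Il1rn start has the AP-1 letters at positions -141 to -135, and Il1a has them at -12 to -6. The downstream Il1rn start has the NF-κB letters GGGTTTTTCC at -51 to -42, which a neighbouring start of the same gene shares, and Il18rap has the PU.1 letters at -79 to -72. No match was found before Il1b or either Il1rl1 start. Over windows of 300 bases that run on 50 bases past the start, 1.63% of 32851 RefSeq windows hold the NF-κB letters, 7.81% the AP-1 letters and 3.2% the PU.1 letters, and of the 17 windows of the 10 genes 2, 2 and 1 do. A looser NF-κB pattern (GGG, any 5 bases, then CC) is in 50.8% of all windows and was not marked. These matches are descriptions of the letters.

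The lines differed in which part of the family they expressed (plot of levels per length). Between genes, levels are compared on the authors' RPKM, reads scaled for gene length and library depth, which was deposited rounded to 0.1. In untreated K-Luc cells Il1rl1 stood highest (22.1 ± 8.5 RPKM, SD, n = 2), followed by Il1r1 (7.75 ± 0.92), Il18rap (7.35 ± 1.3), Il1rap (3.2 ± 0.28) and Il18 (1.05 ± 0.07). The ranges of Il1r1 and Il18rap overlapped there. Il33 was at 0.3 RPKM in both untreated libraries, Il18r1 at 0.1, and Il1rn at 0 and 0.1, while Il1a and Il1b were listed at 0. In untreated RAW-Blue cells the antagonist gene Il1rn stood highest (13.9 ± 1.1 RPKM, n = 2), followed by Il1rl1 (4.6 ± 0.71), Il18 (3.8 ± 0.28), Il18rap (3.0 in both libraries) and Il1rap (1.25 ± 0.35). The ranges of neighbours in that order did not overlap, and Il1a was at 0 and 0.1 RPKM while Il1b, Il33, Il1r1 and Il18r1 were listed at 0. K-Luc cells thus had the receptor for interleukin-1 and its accessory chain with few reads of a ligand, and RAW-Blue cells had the antagonist with few reads of the receptor it binds.

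**Figure D1:**
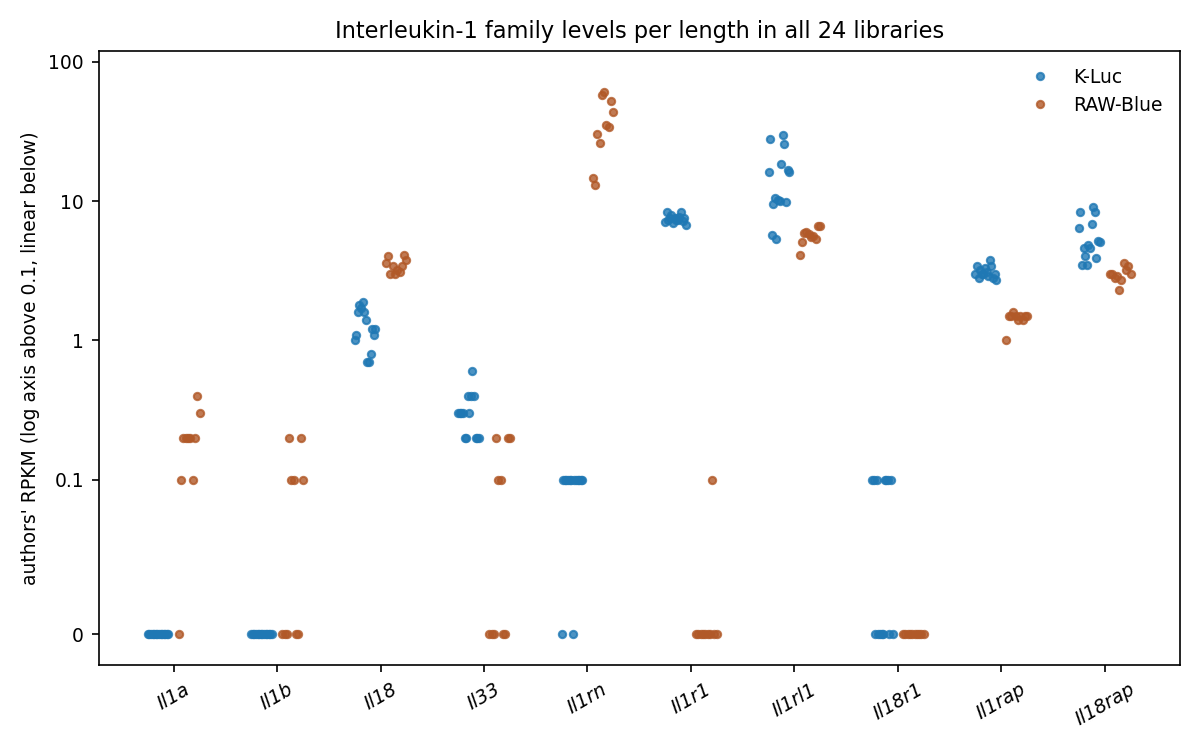
Level of each of the 10 genes in all 24 libraries, in the authors' RPKM (vertical axis, logarithmic above 0.1 and linear below it), with K-Luc in blue and RAW-Blue in brown, 1 point a library. Il1rn lies between 13.1 and 60.9 RPKM in RAW-Blue and at 0 or 0.1 in K-Luc, and Il1r1 lies between 6.7 and 8.4 RPKM in K-Luc and at 0 or 0.1 in RAW-Blue.

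In a fit of both lines to the counts, 8 of the 10 genes differed between untreated RAW-Blue and untreated K-Luc cells by edgeR's quasi-likelihood test at an adjusted p under 0.05. So did 77.9% of the 13350 genes tested, so that this share is near the background. From here on a level is in CPM (the count relative to library size), scaled for library composition, used only within a gene, and a fold change is on the log2 scale with its standard error. Il1rn was higher in RAW-Blue (7.50 ± 0.26, adjusted p = 4.4e-18 by edgeR), with 2214 counts against 11. Il1r1, the signalling receptor for interleukin-1, was lower (-8.24 ± 0.21, adjusted p = 9.16e-21 by edgeR), with 7 counts against 2141. Il18 was higher in RAW-Blue (2.04), and Il1rl1 (-2.48), Il18rap (-1.33) and Il1rap (-1.22) were lower. Il33 (43 counts in untreated K-Luc, 2 in untreated RAW-Blue) and Il18r1 (23 and 3) were also called lower in RAW-Blue. As ratios of K-Luc to RAW-Blue counts, scaled for library size, they were 21.5 for Il33 (95% interval 5.6 to 183) and 7.67 for Il18r1 (2.32 to 39.9). These intervals, like all others given here for ratios of counts, cover counting error only. Il1a and Il1b were not called, with 1 count against 6 and 0 against 2.

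Total counts were 13318636 to 24130359 in K-Luc libraries and 17186874 to 20256833 in RAW-Blue libraries. The summed level of 7 macrophage markers was 11.1 to 16.4 CPM in K-Luc and 4418 to 5163 CPM in RAW-Blue, and that of 7 glial and glioma markers 729 to 1040 and 486 to 681 CPM, with Olig2 at 0 in all 24 libraries. The glial and glioma sum hides larger differences of single markers. Of 5 tested, 4 were called lower in untreated RAW-Blue than in untreated K-Luc cells (median log2 difference -4.34, with 77.9% of all genes called). Sox2 and Fabp7 had no count in untreated RAW-Blue. Of other cells known for ST2 or the interleukin-18 receptor, markers of mast cells and of T and NK cells were near 0, and endothelial markers were not in RAW-Blue. The 6 mast cell markers summed to at most 0.056 CPM in any library, with Cpa3, Fcer1a and Mcpt4 at 0 in all 24. The 6 T and NK cell markers summed to at most 0.53 CPM, with Cd3g, Cd8a, Ncr1 and Klrb1c at 0 in all 24, while 5 endothelial markers summed to 0.62 to 1.25 CPM in K-Luc and 15.5 to 27.3 CPM in RAW-Blue. Over all genes, the 2 untreated RAW-Blue libraries stood farther apart (chi-square of 43.2 per degree of freedom) than the pairs of the other RAW-Blue groups (1.95 to 5.78) or of any K-Luc group (2.63 to 14.5), and all 4 RAW-Blue comparisons with untreated rest on them. In each line 8 of the 10 genes passed the filter on low counts. Il1a and Il1b did not in K-Luc, and Il1r1 and Il18r1 did not in RAW-Blue.

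In RAW-Blue cells the antagonist gene Il1rn rose under all 4 treatments and had the smallest adjusted p of the 10 genes under each treatment (plot of ligand and antagonist genes). Il1rn, whose product blocks the interleukin-1 receptor, stood at 63.1 and 58.3 CPM in the 2 untreated libraries. It was at 135 and 115 CPM with CpG, 151 and 148 with SWNT/LP, 228 and 197 with SWNT/CpG, and 258 and 282 with CpG+SWNT/LP. No treated library overlapped the untreated ones, and only the CpG+SWNT/LP and SWNT/CpG libraries lay above all of the SWNT/LP ones. Against untreated, Il1rn rose by 1.05 ± 0.10 with CpG (adjusted p = 0.00032), 1.30 ± 0.10 with SWNT/LP (adjusted p = 0.0016), 1.81 ± 0.10 with SWNT/CpG (adjusted p = 5.9e-06) and 2.15 ± 0.11 with CpG+SWNT/LP (adjusted p = 2.5e-06), all by edgeR. Without untreated replicate 1 the 4 changes were 1.10, 1.36, 1.87 and 2.21, and without untreated replicate 2 they were 0.99, 1.25, 1.75 and 2.10, all called. In linear terms the fold changes with both untreated libraries are 2.06-fold, 2.47-fold, 3.5-fold and 4.45-fold. With SWNT/LP, nanotubes without the oligonucleotide, 0.478% of the 11514 genes tested were called in either direction and 0.434% higher, and Il1rn was the 1 of the 10 family genes among them. It was not called when the 2 groups were fitted alone (1.30, adjusted p = 0.055 by edgeR), and the other alternatives to this comparison kept the call.

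**Figure D2:**
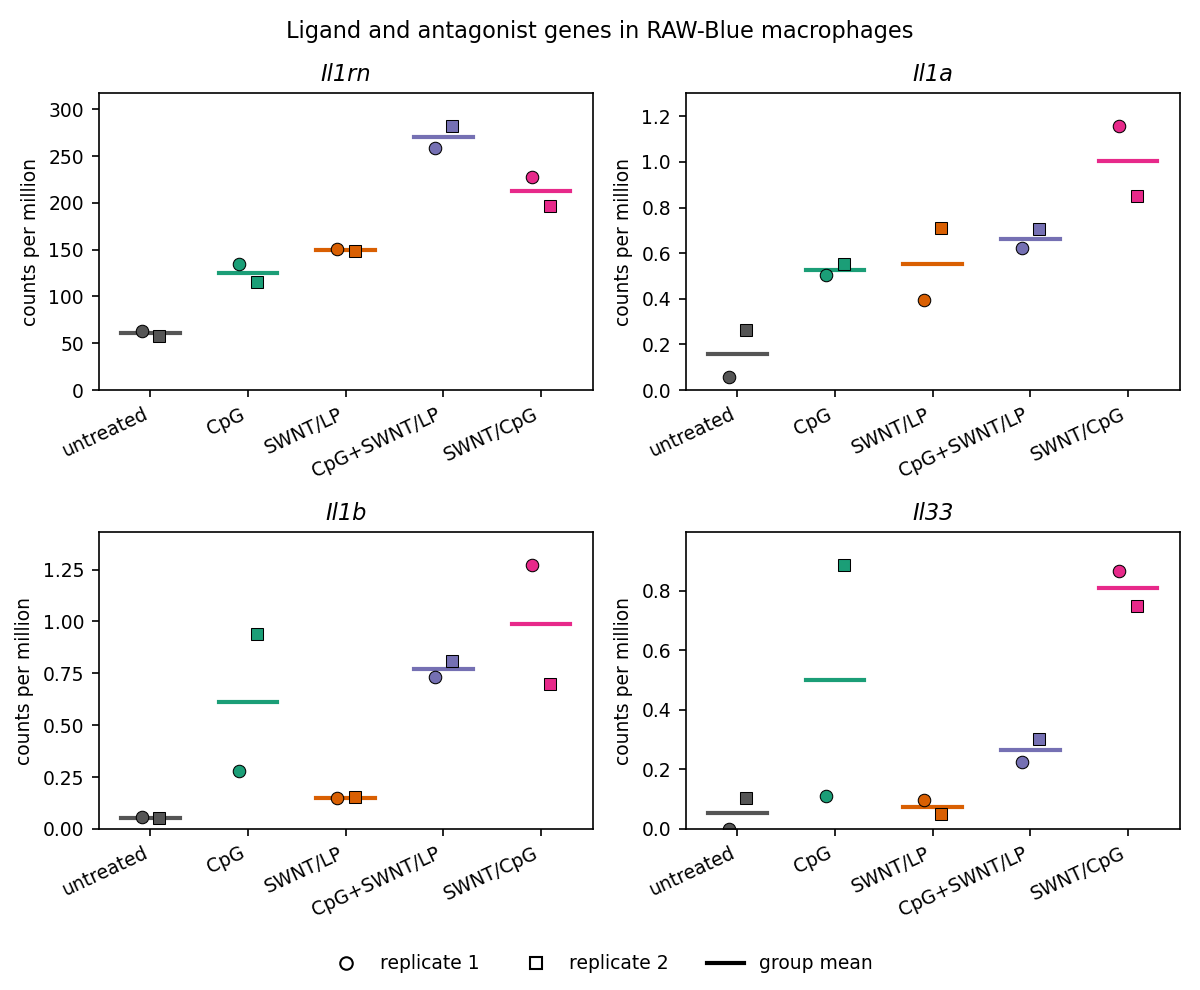
Level of Il1rn, Il1a, Il1b and Il33 (CPM, linear axes from 0) in the 10 RAW-Blue libraries by treatment, with replicate 1 as circles, replicate 2 as squares and the group mean as a line. Il1rn rises from 58.3 to 63.1 CPM in untreated libraries to 258 and 282 CPM with CpG+SWNT/LP, and the vertical scales of the other 3 genes end near 1 CPM.

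The order of the Il1rn levels among the treatments was tested in 6 pairs, 3 of them added after the data were seen. CpG+SWNT/LP was higher than CpG (1.11 ± 0.10, adjusted p = 0.0066) and than SWNT/LP (0.85 ± 0.10, adjusted p = 0.0014), and SWNT/CpG was higher than CpG (0.76 ± 0.10, adjusted p = 0.021) and than SWNT/LP (0.50 ± 0.10, adjusted p = 0.011), all by edgeR. The share of all genes called was 4.82% for CpG+SWNT/LP and 10.3% for SWNT/CpG against SWNT/LP. Not all neighbours in the order were separated. SWNT/LP lay above CpG by 0.26 (95% interval 0.03 to 0.48, adjusted p = 0.31 by edgeR, 2.41% of all genes called), and joined SWNT/CpG lay below unjoined CpG+SWNT/LP by a log2 difference of -0.35 (-0.57 to -0.12, adjusted p = 0.15 by edgeR). Across all genes the differences from CpG were few, 0.13% with CpG+SWNT/LP and 0.842% with SWNT/CpG, and Il1rn was the 1 member called in each. Both calls were lost without several of the single libraries, while the changes stayed at 1.00 to 1.22 and 0.65 to 0.88 over all alternatives. For CpG+SWNT/LP against CpG the adjusted p by edgeR was 0.055 without CpG replicate 1, 0.23 without CpG replicate 2 and 0.11 without CpG+SWNT/LP replicate 2. For SWNT/CpG against CpG it was 0.15 without CpG replicate 1, 0.089 without CpG replicate 2 and 0.26 without SWNT/CpG replicate 1. The difference between SWNT/CpG and SWNT/LP was likewise not called without SWNT/LP replicate 1 (0.092), SWNT/LP replicate 2 (0.10) or SWNT/CpG replicate 1 (0.12).

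Il1a and Il1b, the agonist genes, lay near the detection limit, and both passed the filter on low counts through treated groups. Il1a stood at 0.057 and 0.263 CPM untreated (6 counts in the 2 libraries), 0.503 and 0.554 with CpG, 0.394 and 0.709 with SWNT/LP, 0.621 and 0.708 with CpG+SWNT/LP, and 1.16 and 0.85 with SWNT/CpG (37 counts). Its treated libraries all lay above the untreated ones, and those of SWNT/CpG above all others. The change was called with CpG+SWNT/LP (1.98 ± 0.60, adjusted p = 0.042 by edgeR) and SWNT/CpG (2.55 ± 0.55, adjusted p = 0.0085 by edgeR), and not with CpG (1.65 ± 0.63, adjusted p = 0.13 by edgeR) or SWNT/LP (1.70 ± 0.61, adjusted p = 0.32 by edgeR). As a ratio of counts, SWNT/CpG to untreated was 6.04 (95% interval 2.53 to 17.5).

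Il1b stood at 0.057 and 0.0526 CPM untreated, 1 count in each library. It was at 0.279 and 0.941 CPM with CpG, 0.148 and 0.152 with SWNT/LP, 0.734 and 0.809 with CpG+SWNT/LP, and 1.27 and 0.7 with SWNT/CpG. The 2 CpG libraries lay far apart, and the SWNT/LP libraries lay below every library that received the oligonucleotide. As ratios of counts to untreated, Il1b was 11.2 with CpG (95% interval 2.75 to 98), 14.1 with CpG+SWNT/LP (3.58 to 122), 17.6 with SWNT/CpG (4.54 to 151) and 2.74 with SWNT/LP (0.489 to 27.7). The fitted changes were called for CpG (adjusted p = 0.043), CpG+SWNT/LP (adjusted p = 0.015) and SWNT/CpG (adjusted p = 0.0063) by edgeR, and the size of a fitted change from 2 counts depends on the prior count. Even the highest library, at 1.27 CPM, held 22 counts of Il1b.

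Il33, which codes for the ligand of ST2, showed the same low range in RAW-Blue. It was at 0 and 0.105 CPM untreated, 0.112 and 0.886 with CpG, 0.0984 and 0.0506 with SWNT/LP, 0.226 and 0.304 with CpG+SWNT/LP, and 0.867 and 0.75 with SWNT/CpG. It was called for SWNT/CpG (adjusted p = 0.026 by edgeR), where the ratio of counts to untreated was 14.7 (95% interval 3.73 to 127, 30 counts against 2). CpG replicate 2 lay as high as the SWNT/CpG libraries and CpG replicate 1 did not. Il1a, Il1b and Il33 passed the filter through the groups where they were high, so that a difference was built into their being tested at all.

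Most of these low-level calls were lost with 1 library less. With DESeq2 the Il1b call with CpG and the Il1a call with CpG+SWNT/LP were lost as well. Neither Il1a call held when only the groups compared were fitted. The Il1b call with CpG was lost without untreated replicate 1 (adjusted p = 0.056) or CpG replicate 2 (0.29), and that with CpG+SWNT/LP without either of its own libraries (0.058 and 0.072). The Il1a call with CpG+SWNT/LP was lost without untreated replicate 1 (0.15) or either treated library (0.12 and 0.16), and that with SWNT/CpG without SWNT/CpG replicate 1 (0.062). The Il33 call with SWNT/CpG was lost without either treated library (0.11 and 0.080). Untreated replicate 1 lowered and untreated replicate 2 raised the fitted changes with SWNT/CpG when left out, to 1.89 and 3.97 for Il1a and to 2.86 and 6.92 for Il33, called in each. The Il1b call with SWNT/CpG held without each library in turn, at an adjusted p of up to 0.049 by edgeR.

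Il18, made as a precursor in many resting cells, stayed between 4.8 and 6.42 CPM in the 10 RAW-Blue libraries, and no comparison called it. Against untreated its log2 changes were -0.21 with CpG (95% interval -0.55 to 0.13), -0.22 with SWNT/LP (-0.56 to 0.11), -0.25 with CpG+SWNT/LP (-0.59 to 0.09) and 0.08 with SWNT/CpG (-0.25 to 0.41). A change of the size seen for Il1rn lies outside all of these intervals.

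Of the receptor genes in RAW-Blue, Il1rl1, the ST2 gene, was the 1 that was called. It stood at 46 and 58.6 CPM untreated, 67.6 and 68.8 with CpG, 62.4 and 60.7 with SWNT/LP, 67 and 66.7 with CpG+SWNT/LP, and 73.7 and 77.4 with SWNT/CpG. All treated libraries lay above both untreated ones, which were farther apart than the libraries of any treatment. The rises were 0.38 ± 0.10 with CpG (adjusted p = 0.043), 0.35 ± 0.10 with CpG+SWNT/LP (adjusted p = 0.038) and 0.53 ± 0.10 with SWNT/CpG (adjusted p = 0.005) by edgeR, or 1.3-fold, 1.28-fold and 1.45-fold, and SWNT/LP was not called (0.23, 95% interval 0.00 to 0.46, adjusted p = 0.38 by edgeR). None of the 3 was called when only the groups compared were fitted (adjusted p of 0.32, 0.24 and 0.10), and the calls with CpG (0.16 and 0.19) and with CpG+SWNT/LP (0.15 and 0.14) were lost without either treated library. With SWNT/CpG, leaving out untreated replicate 1 gave a rise of 0.37 and leaving out untreated replicate 2 one of 0.72, both called. Il1rap (13.9 and 21.6 CPM untreated, 19.9 to 22.4 treated) and Il18rap (16 to 23.8 CPM over all 10 libraries) were not called in any comparison with untreated. Il1r1 had 43 counts over the 10 libraries and Il18r1 18, and neither was tested.

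In all, 3 of the 8 genes tested were called higher in RAW-Blue with CpG (5.18% of all 11514 genes were called higher and 10.8% in either direction), 1 with SWNT/LP, 4 with CpG+SWNT/LP (10.1% and 20.3%) and 5 with SWNT/CpG (12.8% and 23.2%), and none was called lower. In the same order of treatments the counts were 2, 1, 3 and 5 without untreated replicate 1 and 6, 4, 5 and 6 without untreated replicate 2. Without CpG replicate 2 the count with CpG was 1. With CpG+SWNT/LP it was 1 without either treated library, and with SWNT/CpG it was 3 without SWNT/CpG replicate 1. Il1a, Il1b and Il33 passed the filter on low counts only through groups where they were high, so that the filter favoured a call for them. Of the other 5 genes Il1rn and Il1rl1 were called. The summed level of the 7 macrophage markers moved with the oligonucleotide, at 4997 to 5163 CPM in the 6 libraries that received it and 4418 to 4835 CPM in the 4 that did not. Single markers went both ways. Against untreated, 1 of the 7 was called higher with CpG, 3 higher and 1 lower with CpG+SWNT/LP, and 2 higher and 2 lower with SWNT/CpG. The part of this sum in the changes of the family genes was not tested. Between SWNT/CpG and CpG+SWNT/LP, the joined and unjoined forms of the same ingredients, none of the 8 was called by edgeR or DESeq2. In edgeR 2 had an unadjusted p under 0.05, and 0.825% of all genes were called.

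**Figure D3:**
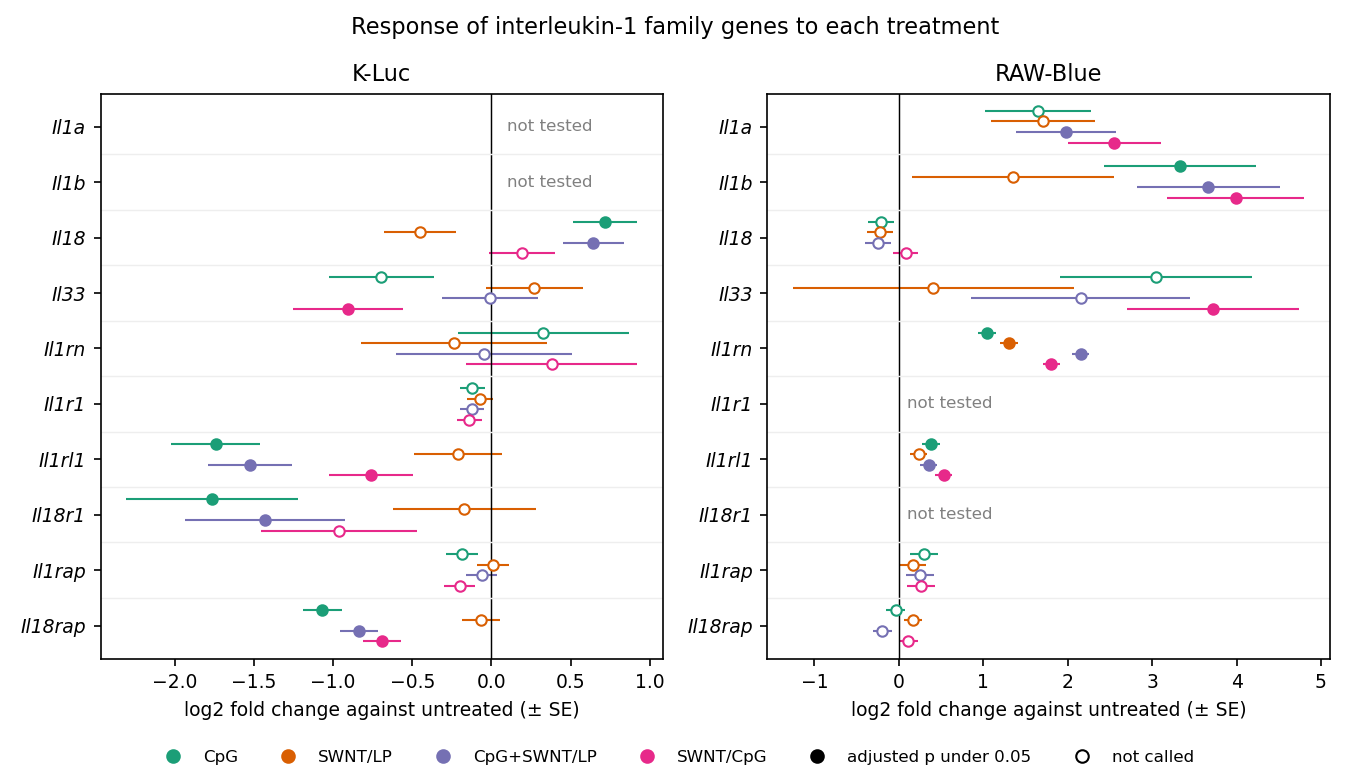
Fitted log2 fold change against untreated (horizontal axis, point ± standard error) for the 10 genes in K-Luc (left) and RAW-Blue (right), with filled points where the adjusted p was under 0.05 and 1 colour a treatment. In K-Luc the called changes of Il1rl1, Il18rap and Il18r1 lie left of 0 and those of Il18 right of it, while in RAW-Blue all called changes lie right of 0, and those of Il1b and Il33 there rest on 2 untreated counts and depend on the prior count.

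In K-Luc cells 2 of the 5 receptor genes, Il18rap and Il1rl1, fell under all 3 treatments with the oligonucleotide (plot of receptor genes and Il18). Il18rap, whose product is the accessory chain of the interleukin-18 receptor, stood at 39.2 and 51 CPM untreated. It was at 20.7, 28.4 and 25.1 CPM with CpG, 21.4, 29.5 and 28.6 with CpG+SWNT/LP, 23.6, 32.4 and 32 with SWNT/CpG, and 41.4, 55.3 and 51 with SWNT/LP. All 9 libraries with the oligonucleotide lay below all 5 without it. The summed level of the 7 glial and glioma markers split the libraries in the same way, at 729 to 871 CPM with the oligonucleotide and 937 to 1040 CPM without it. Single markers went both ways. Of 5 tested, 1 was called higher and 2 lower with CpG and with CpG+SWNT/LP, and 2 lower with SWNT/CpG. The share of all genes called was 36.2%, 33.9% and 43.1%. The median log2 change of the 5 was -0.07, -0.07 and -0.08. The part of this sum in the changes of the K-Luc receptor genes was not tested. The fall of Il18rap was -1.07 ± 0.12 with CpG (adjusted p = 2.5e-05), -0.84 ± 0.12 with CpG+SWNT/LP (adjusted p = 0.00013) and -0.69 ± 0.12 with SWNT/CpG (adjusted p = 0.00031) by edgeR, to 0.477, 0.56 and 0.621 of the untreated level. In bulk RNA, fewer cells with the transcript and less of it per cell cannot be told apart. These 3 calls held under every alternative run, and in run 2 alone the changes were -1.05, -0.82 and -0.66 (adjusted p of 0.00081, 0.0078 and 0.010). With SWNT/LP the log2 change was -0.07 (95% interval -0.33 to 0.19, adjusted p = 0.98 by edgeR).

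Il1rl1, the ST2 gene, was the family gene with the highest level per length in K-Luc. It stood at 168 and 293 CPM untreated, 57, 98.9 and 111 with CpG, 54.4, 105 and 106 with CpG+SWNT/LP, 101, 176 and 170 with SWNT/CpG, and 190, 311 and 268 with SWNT/LP. The CpG and CpG+SWNT/LP libraries lay below every untreated and SWNT/LP library, while 2 of the 3 SWNT/CpG libraries lay above the lower untreated one. The fall was -1.74 ± 0.28 with CpG (adjusted p = 0.0015), -1.52 ± 0.27 with CpG+SWNT/LP (adjusted p = 0.0024) and -0.76 ± 0.26 with SWNT/CpG (adjusted p = 0.043) by edgeR, to 0.299, 0.348 and 0.59 of the untreated level. In run 2 alone the first 2 changes were -1.72 and -1.48 (adjusted p of 0.0086 and 0.031), and with only untreated and CpG in the fit the first was not called (-1.72, adjusted p = 0.092 by edgeR). The call with SWNT/CpG was lost without a run term (adjusted p = 0.25), in run 2 alone (-0.76, adjusted p = 0.16) and without any 1 of the 5 libraries compared (0.084 to 0.20). With SWNT/LP the fitted change was -0.21 (95% interval -0.84 to 0.42, adjusted p = 0.96 by edgeR), although the SWNT/LP mean (256 ± 62 CPM, n = 3) was above the untreated one (230 ± 88, n = 2). The run term of the fit adjusts 1 of the 2 untreated libraries and none of the SWNT/LP libraries. Replicate 1 of SWNT/LP, of run 2, was low as well, at 0.655 of the mean of the others. All run 1 libraries are replicate 1, while replicate 1 of SWNT/LP and of CpG is of run 2, so run and replicate number overlap in part. The part of each in these low values was not tested.

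**Figure D4:**
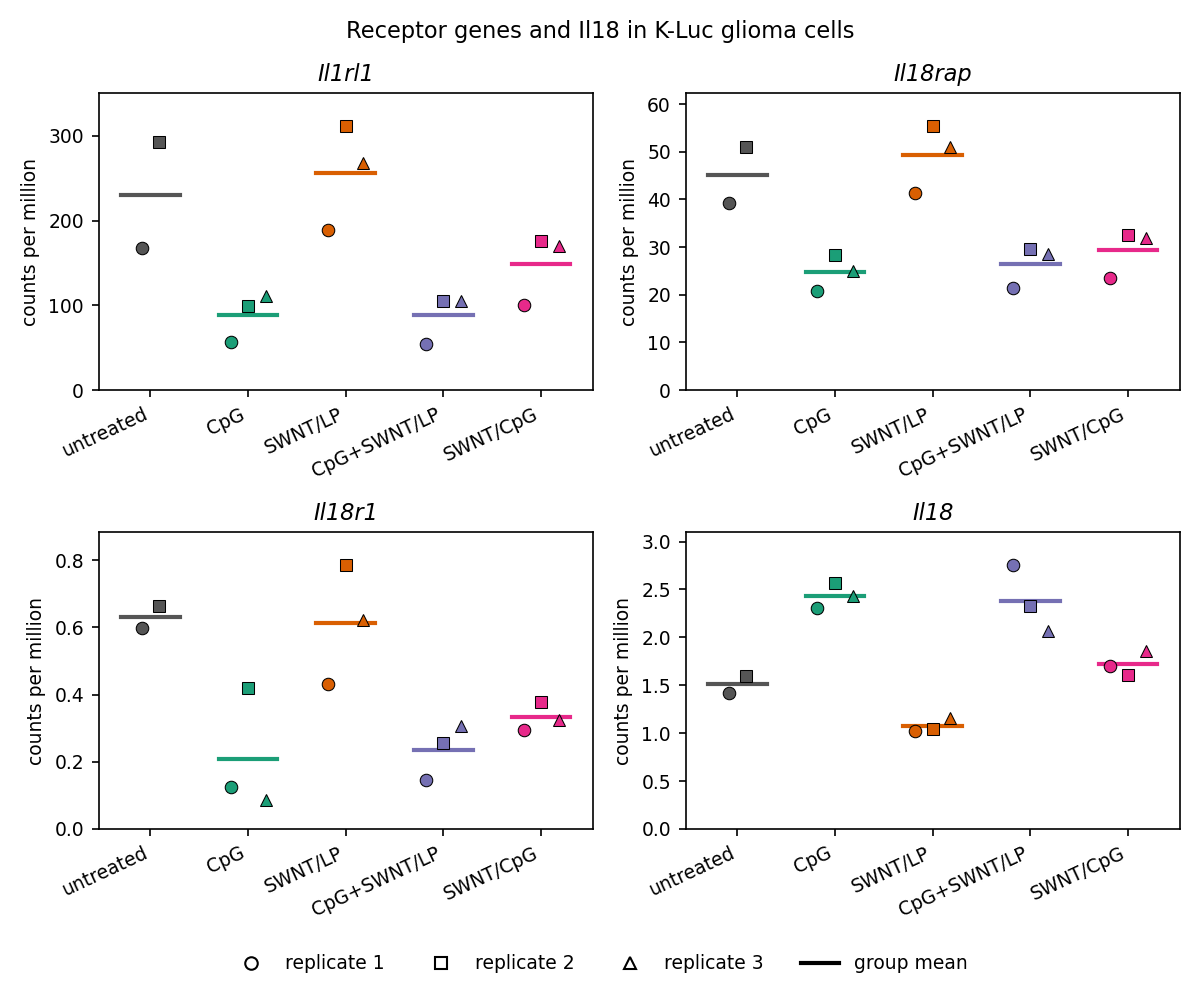
Level of Il1rl1, Il18rap, Il18r1 and Il18 (CPM, linear axes from 0) in the 14 K-Luc libraries by treatment, with replicates 1, 2 and 3 as circles, squares and triangles and the group mean as a line. For Il18rap the 9 libraries with the oligonucleotide lie between 20.7 and 32.4 CPM and the 5 without it between 39.2 and 55.3 CPM, and replicate 1 is the lowest of its group for Il1rl1 and Il18rap in all 5 groups.

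Replicate 1 moved with these results. It was the lowest library of its group for Il1rl1 and Il18rap in all 5 K-Luc groups, as it was for 1496 genes (12% of the 12420 tested), and 2 of those 5 libraries are of run 2. For Il1rl1 it stood at 0.516 to 0.655 of the mean of the other libraries of its group, and for Il18rap at 0.734 to 0.778. The run term of the fit was -0.85 for Il1rl1 (adjusted p = 0.033 by edgeR) and -0.43 for Il18rap (adjusted p = 0.012 by edgeR). This term does not adjust replicate 1 of CpG, which is of run 2 and stood at 0.544 for Il1rl1. With replicates 2 and 3 alone, an alternative chosen after the data were seen, the Il1rl1 changes were -1.48, -1.47 and -0.76 with CpG, CpG+SWNT/LP and SWNT/CpG, and those of Il18rap -0.93, -0.81 and -0.66. The falls with CpG were thus smaller than in the main fit (-1.74 and -1.07). Untreated was then at 1 library that was assumed to vary like the other groups.

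**Figure D5:**
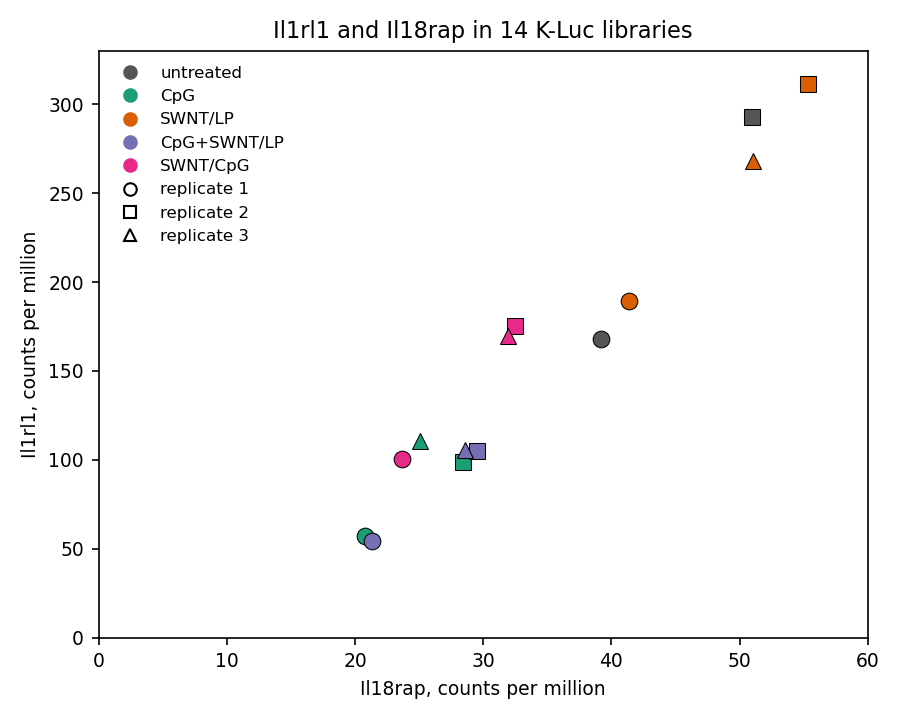
Level of Il1rl1 (vertical) against Il18rap (horizontal) in the 14 K-Luc libraries (CPM, linear axes from 0), coloured by treatment and shaped by replicate number. The 6 CpG and CpG+SWNT/LP libraries lie at the lower left, the SWNT/LP and untreated libraries at the upper right, and the circles of replicate 1 lie below and left of the other shapes of their colour.

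Il18r1, which codes for the ligand-binding chain of the interleukin-18 receptor, followed at a far lower level. It stood at 0.599 and 0.663 CPM untreated, 0.123, 0.42 and 0.0853 with CpG, 0.145, 0.254 and 0.308 with CpG+SWNT/LP, 0.295, 0.378 and 0.324 with SWNT/CpG, and 0.431, 0.785 and 0.623 with SWNT/LP. Its libraries with the oligonucleotide all lay below the untreated ones. It was called with CpG (-1.76 ± 0.54, adjusted p = 0.018 by edgeR) and CpG+SWNT/LP (-1.43 ± 0.50, adjusted p = 0.038 by edgeR) and not with SWNT/CpG (-0.96 ± 0.49, adjusted p = 0.13 by edgeR) or SWNT/LP (-0.17 ± 0.45, adjusted p = 0.98 by edgeR). The counts behind it were 2 to 18 a library. Il18r1 passed the filter on low counts through the untreated and SWNT/LP groups, where it was high, so that a difference was built into its being tested at all. The call with CpG was lost in run 2 alone (-1.68, adjusted p = 0.071) and without untreated replicate 1 (0.055), untreated replicate 2 (0.17), CpG replicate 1 (0.056) or CpG replicate 3 (0.056). That with CpG+SWNT/LP was lost in run 2 alone (-1.23, adjusted p = 0.21) and without each of the 5 libraries compared in turn (0.053 to 0.21).

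The receptor chains for interleukin-1 itself differed little in K-Luc. Il1r1 lay between 51 and 63.2 CPM and Il1rap between 33.8 and 47.8 CPM over the 14 libraries, and neither was called in any comparison with untreated. For Il1r1 the log2 changes were -0.12 with CpG (95% interval -0.29 to 0.05), -0.07 with SWNT/LP (-0.24 to 0.10), -0.12 with CpG+SWNT/LP (-0.29 to 0.04) and -0.14 with SWNT/CpG (-0.30 to 0.02). For Il1rap they were -0.19 (-0.40 to 0.03), 0.01 (-0.20 to 0.23), -0.06 (-0.27 to 0.14) and -0.20 (-0.41 to 0.01) in the same order. Each of the called changes of Il18rap lies outside the intervals of Il1r1 and of Il1rap under the same treatment.

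Il18 was the 1 ligand gene that rose in K-Luc. It stood at 1.42 and 1.59 CPM untreated, 2.31, 2.56 and 2.43 with CpG, 2.75, 2.33 and 2.07 with CpG+SWNT/LP, 1.7, 1.61 and 1.85 with SWNT/CpG, and 1.02, 1.05 and 1.16 with SWNT/LP. The CpG and CpG+SWNT/LP libraries lay above all others and the SWNT/LP libraries below all others. It rose by 0.72 ± 0.20 with CpG (adjusted p = 0.011 by edgeR) and 0.64 ± 0.19 with CpG+SWNT/LP (adjusted p = 0.017 by edgeR), 1.64-fold and 1.56-fold. Il18 was not called with SWNT/CpG (0.19, 95% interval -0.25 to 0.63) or SWNT/LP (-0.45, -0.94 to 0.03). Both calls were lost with DESeq2, and that with CpG also when only untreated and CpG were fitted. In run 2 alone the rises were 0.61 (adjusted p = 0.069) and 0.46 (adjusted p = 0.23). The call with CpG was lost without untreated replicate 1 (0.063) or untreated replicate 2 (0.072), and that with CpG+SWNT/LP without untreated replicate 1 (0.16), untreated replicate 2 (0.081) or CpG+SWNT/LP replicate 1 (0.14).

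Il33 in K-Luc stood at 0.974 and 1.33 CPM untreated, 0.988, 0.979 and 0.64 with CpG, 0.676, 1.74 and 1.23 with CpG+SWNT/LP, 1.46, 2.14 and 1.47 with SWNT/LP, and 0.591, 0.615 and 0.788 with SWNT/CpG. The SWNT/CpG libraries lay below both untreated ones and the SWNT/LP libraries above both. The fall with SWNT/CpG (-0.91 ± 0.35, adjusted p = 0.046 by edgeR) was not called in run 2 alone (-0.91, adjusted p = 0.12 by edgeR), nor without untreated replicate 1 (0.15), untreated replicate 2 (0.17), SWNT/CpG replicate 2 (0.16) or SWNT/CpG replicate 3 (0.082). This Il33 call was also lost with DESeq2, with no filter on low counts, with no run term and with a replicate block. The antagonist gene Il1rn had 2 to 12 counts a library, 0.15 to 0.56 CPM, and was not called. Il1a had 6 counts in all over the 14 libraries, 11 of which had none. Il1b had no count in any of the 14, which allows a level of up to 0.0103 CPM over the line (3 counts of the summed library sizes).

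In all, 4 of the 8 genes tested in K-Luc were called with CpG (1 higher and 3 lower, where 17.9% of all 12420 genes were called higher, 18.4% lower and 36.2% in all). With CpG+SWNT/LP 4 were called (1 higher and 3 lower, against 16.1%, 17.8% and 33.9%) and with SWNT/CpG 3 (all lower, against 21.3% lower and 43.1% in all). With 8 genes tested, these counts lie near the background of each comparison. Il18r1, 1 of the 3 called lower with CpG and with CpG+SWNT/LP, passed the filter only through groups where it was high, so that the filter favoured its call. The median log2 change of the 8 was -0.44, -0.09 and -0.44, where that of all genes was 0.01 in each. With SWNT/LP none of the 8 was called by edgeR or DESeq2, none had an unadjusted p under 0.05 in edgeR, and 0.129% of all genes were called.

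Joined and free oligonucleotide were compared directly. Il1rl1 was higher with SWNT/CpG than with CpG (0.98 ± 0.25, adjusted p = 0.029 by edgeR), as was Il18rap (0.38 ± 0.11, adjusted p = 0.034 by edgeR), and Il18 was lower (-0.53 ± 0.17, adjusted p = 0.045 by edgeR), where 14.9% of all genes were called. The groups overlapped for Il1rl1 and Il18rap, in which replicate 1 of SWNT/CpG lay among the CpG libraries, and did not for Il18. None of these 3 calls held in run 2 alone (adjusted p of 0.071, 0.081 and 0.11). Il18 was not called without any 1 of the 6 libraries compared (0.057 to 0.17). Il1rl1 was not called without CpG replicate 2 (0.057) or SWNT/CpG replicate 1 (0.055), 2 (0.089) or 3 (0.081), nor Il18rap without CpG replicate 1 (0.088), CpG replicate 3 (0.074) or SWNT/CpG replicate 1 (0.062), 2 (0.13) or 3 (0.11). None of the 3 was called with no filter on low counts or with no run term, and Il18 was not called with DESeq2. Against CpG+SWNT/LP, where 17.7% of all genes were called, SWNT/CpG was called lower for Il33 (-0.90 ± 0.30, adjusted p = 0.048 by edgeR, groups overlapping). DESeq2 and the fit with no run term did not keep this Il33 call. That call was lost in run 2 alone (-1.07, adjusted p = 0.070) and without CpG+SWNT/LP replicate 2 (0.27) or 3 (0.066) or SWNT/CpG replicate 1 (0.062), 2 (0.22) or 3 (0.12). With SWNT/LP added to CpG, none of the 8 was called by edgeR or DESeq2, and 0.266% of all genes were called in edgeR. There 1 of the 8 had an unadjusted p under 0.05, Il33 (0.69, 95% interval 0.10 to 1.27, adjusted p = 0.85 by edgeR). There the log2 difference was 0.22 for Il1rl1 (95% interval -0.35 to 0.79), 0.23 for Il18rap (-0.01 to 0.47) and -0.07 for Il18 (-0.40 to 0.26).

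Against SWNT/LP, in pairs added after the data were seen, the K-Luc libraries with the oligonucleotide stood apart. Il18rap was higher with SWNT/LP than with CpG (1.00 ± 0.10, adjusted p = 4.1e-06 by edgeR, where 39.5% of all genes were called), and lower with CpG+SWNT/LP (-0.77 ± 0.11, adjusted p = 0.00011, 30.8%) and SWNT/CpG (-0.62 ± 0.11, adjusted p = 0.00031, 41.7%) than with SWNT/LP, by edgeR. Il18 differed the other way, lower with SWNT/LP than with CpG (-1.17 ± 0.17), and higher with CpG+SWNT/LP (1.10 ± 0.18) and SWNT/CpG (0.64 ± 0.20) than with SWNT/LP. In the order of Il1rl1 levels, CpG and CpG+SWNT/LP were not separated, nor were untreated and SWNT/LP, and SWNT/CpG lay between, below SWNT/LP by a log2 difference of -0.55 (95% interval -1.10 to 0.00, adjusted p = 0.10 by edgeR). The call for Il18 between SWNT/CpG and SWNT/LP was lost with DESeq2 and without SWNT/CpG replicate 3 (adjusted p = 0.11 by edgeR).

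The responses of the 2 lines were compared in the fit of both lines. The response to CpG differed between RAW-Blue and K-Luc for 4 of the 10 genes, where 21.9% of all 13350 were called. The response to SWNT/CpG differed for 3 of the 10, which is near the background of 25.4%. Il1rl1 rose in RAW-Blue and fell in K-Luc under both treatments. Its response was higher in RAW-Blue by 2.11 ± 0.33 with CpG (adjusted p = 0.00028 by edgeR) and by 1.29 ± 0.32 with SWNT/CpG (adjusted p = 0.0062 by edgeR, and not called without a run term, at 0.11). Il18rap fell in K-Luc and was not called in RAW-Blue, and its response was higher in RAW-Blue by 1.01 ± 0.18 with CpG (adjusted p = 0.00037 by edgeR) and 0.80 ± 0.18 with SWNT/CpG (adjusted p = 0.0016 by edgeR). For Il1rn a difference of the responses was not called (0.71, 95% interval -0.48 to 1.89 with CpG, and 1.44, 0.21 to 2.66 with SWNT/CpG, adjusted p of 0.43 and 0.080 by edgeR), with 2 to 12 counts in a K-Luc library. Il1rl1 counts are summed over the gene, so that the membrane receptor and its soluble decoy form cannot be told apart, nor can its 2 start sites, of which the upstream one is known from blood cells and the downstream one from fibroblasts.

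Other genes of the route were counted from fixed lists. In RAW-Blue, of 14 tested genes known to respond to interleukin-1 (20 listed), 9 were called higher with CpG, 4 with SWNT/LP, 9 with CpG+SWNT/LP and 12 with SWNT/CpG, and 0, 0, 1 and 1 lower. Of all 11514 genes tested, 5.18%, 0.434%, 10.1% and 12.8% were called higher in the same order. The median log2 changes of the 14 were 2.19, 0.72, 1.95 (1.97 with genes near 0 counts set to their bound) and 2.60. The median of all genes was between 0.00 and 0.01. With SWNT/CpG the chemokine genes Ccl2 (3.88 ± 0.14) and Ccl7 (5.13 ± 0.30), the granulocyte growth factor Csf3 (7.53 ± 0.34) and Zc3h12a (1.94 ± 0.09), an RNase that degrades cytokine mRNA, had the smallest adjusted p. With SWNT/LP the 4 were Ccl2 (1.40 ± 0.14), Cxcl2 (2.28 ± 0.22), Csf3 (3.41 ± 0.46) and Zc3h12a (0.61 ± 0.10). None of these 4 calls with SWNT/LP held without either SWNT/LP library (adjusted p of 0.052 to 0.41 by edgeR). Toll-like receptor and other NF-κB signals are known to raise the same genes.

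In K-Luc, 11 of these 20 target genes were tested. With CpG 0 were called higher and 1 lower (Ccl7, -0.60 ± 0.15, not called without untreated replicate 2, at 0.14), with SWNT/LP none, with CpG+SWNT/LP 4 higher and 1 lower, and with SWNT/CpG 9 higher and 1 lower, where 43.1% of all genes were called in either direction. With CpG, SWNT/LP and CpG+SWNT/LP that share of all genes was 36.2%, 0.129% and 33.9%. The median log2 changes of the 11 were 0.03, 0.14, 0.21 and 0.59. With SWNT/CpG the smallest adjusted p were those of Zc3h12a (0.79 ± 0.08), the adhesion gene Vcam1 (0.34 ± 0.05), the NF-κB inhibitor Tnfaip3 (0.82 ± 0.12) and Nfkbiz (0.34 ± 0.08, not called without untreated replicate 2, at 0.051), while Ptgs2, the inducible cyclooxygenase, fell (-0.62 ± 0.15).

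Genes of receptor signalling formed another list. Of 21 tested in RAW-Blue, 3, 0, 5 and 5 were called higher (in the same order of treatments) and 1, 0, 2 and 1 lower. Of all genes, 5.18%, 0.434%, 10.1% and 12.8% were called higher there, and 10.8%, 0.478%, 20.3% and 23.2% in either direction. Irak3, which codes for the inhibitory kinase IRAK-M, had the smallest adjusted p with CpG (1.24 ± 0.12), CpG+SWNT/LP (1.12 ± 0.12) and SWNT/CpG (1.94 ± 0.12) and was not called with SWNT/LP (0.02 ± 0.13). It stood at 28.0 ± 0.34 CPM untreated and 107 ± 8.4 with SWNT/CpG (n = 2 each). The kinase gene Irak1 fell with SWNT/CpG (-0.38 ± 0.08), and the NF-κB genes Nfkb1 (0.67 ± 0.10) and Nfkbia (0.50 ± 0.09) rose. Of 20 tested in K-Luc, 2, 0, 1 and 7 were called higher and 0, 0, 1 and 0 lower. In either direction 36.2%, 0.129%, 33.9% and 43.1% of all genes were called there, so that these counts lie below the background. Under SWNT/CpG, Ikbkg (0.28 ± 0.07), Rela (0.18 ± 0.05), Myd88 (0.29 ± 0.08) and Nfkb1 (0.15 ± 0.04) had the smallest adjusted p of this list. Of these 4 K-Luc calls, those of Ikbkg (0.063) and Myd88 (0.061) were lost without untreated replicate 1, and those of Myd88 (0.096), Rela (0.25) and Nfkb1 (0.21) without untreated replicate 2. Irak1 in RAW-Blue was lost without SWNT/CpG replicate 2 (0.073). For the whole list the median log2 change was at most 0.09 in any comparison with untreated in either line. Irak3 had 1 count in the 14 K-Luc libraries.

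Genes that process and release the ligands were present unequally. Pycard, which codes for the adaptor ASC that most inflammasomes need, had no count in any of the 10 RAW-Blue libraries (up to 0.016 CPM by 3 counts over the line) and 2 counts in the 14 K-Luc libraries, and RAW 264.7 cells are known to lack ASC. Of 13 such genes tested in RAW-Blue, 0, 0, 2 and 5 were called higher (in the same order of treatments) and 1, 0, 1 and 1 lower. In either direction 10.8%, 0.478%, 20.3% and 23.2% of all genes were called there. With SWNT/CpG the smallest adjusted p were those of Dfna5 (1.19 ± 0.15), which codes for the pore protein gasdermin E, the inflammasome sensor Nlrp3 (0.48 ± 0.09), Txnip (-0.39 ± 0.08), which codes for a thioredoxin-binding protein, and the caspase gene Casp8 (0.41 ± 0.09). Casp1, the interleukin-1β converting enzyme, was called too (0.48 ± 0.12). Nlrp3 was not called without SWNT/CpG replicate 1 (0.071), Txnip without SWNT/CpG replicate 2 (0.075), nor Casp8 without SWNT/CpG replicate 1 (0.066) or 2 (0.076). Of 9 tested in K-Luc, 3, 0, 3 and 1 were called higher and 2, 1, 2 and 2 lower. In either direction 36.2%, 0.129%, 33.9% and 43.1% of all genes were called in K-Luc. Dfna5 was called lower there under all 4 treatments (-0.32 ± 0.12, -0.81 ± 0.12, -0.77 ± 0.11 and -0.99 ± 0.12 in the same order), with the call under SWNT/LP lost without untreated replicate 2 (-0.53, adjusted p near 1), and the ATP receptor gene P2rx7 was called higher under the 3 with the oligonucleotide (0.22, 0.27 and 0.32 in that order).

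The rest of the family was scarcely present. Of 5 further ligand genes (the interleukin-36 genes and Il1f10) none passed the filter in either line. Of 6 further receptors and binding proteins, Sigirr, an inhibitory receptor, and Il18bp, the interleukin-18 binding protein, were tested, and neither was called in any comparison with untreated in either line. Il18bp, which neutralises interleukin-18, stood at 2.71 CPM in untreated RAW-Blue and 4.97 CPM in untreated K-Luc cells (means, n = 2 each, with each line scaled on its own). The decoy receptor gene Il1r2 had 0 to 4 counts a K-Luc library and 0 to 2 a RAW-Blue library.

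For the member with the smallest adjusted p against untreated in each line, the 3 genes with the most similar levels were looked up, as Pearson correlations of log2 CPM over the libraries of that line, which share treatments and replicate numbers. For Il18rap over 14 K-Luc libraries they included Ifrd1 (0.98) and the ribosome assembly gene Pes1 (0.98). Among the genes tested, Il1rl1 stood 23rd (0.96) and Il18r1, which lies next to Il18rap, 188th (0.92). For Il1rn over 10 RAW-Blue libraries they were Tnfrsf26 (0.98), the interferon-induced Rsad2 (0.98) and the chemokine receptor gene Ccr1 (0.97). These are descriptions over libraries that differ mainly by treatment, and many genes moved with the treatments.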

How the data were processed

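Poly(A) RNA was sequenced with a stranded kit (KAPA Stranded mRNA-Seq), per the labels' protocols. The submitters' processing notes name the mm9 build, HTSeq 0.6.0 and TopHat2 2.0.14. Which annotation, filters and strand setting were used is not given in the sources used here. Raw read counts per gene, as the authors deposited them, are the main values. The authors' deposited RPKM, rounded to 0.1, was used only for levels between genes. The genes and lists were chosen with earlier results of these data known.

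Counts were tested with edgeR 4.0.16 (quasi-likelihood F test, limma 3.58.1, R 4.3.3) after TMM scaling and filterByExpr (minimum count 10, minimum total 15), with p-values adjusted over all genes tested (Benjamini-Hochberg) and called under 0.05. The fits took K-Luc by group and run, RAW-Blue by group, and both lines by group and run. Levels are CPM scaled by TMM within each line, so that levels of the 2 lines were not put on a common scale. Each standard error was computed as the log2 change over the root of F, and intervals are 95%. The count test was tested on simulated data. The alternatives were no filter on low counts, DESeq2 1.42.0, edgeR with size factors from DESeq2, a replicate block, no run term, run 2 alone, only the groups compared, each library left out, and, chosen after the data were seen, K-Luc replicates 2 and 3 only. Of the lists, up to 4 called genes a comparison with the smallest adjusted p are named, and for the family gene with the smallest adjusted p in each line the 3 genes with the highest correlation (pseudocount 0.5 CPM). A gene that this rule names is not reported here. Beyond this rule, Casp1, Ptgs2 with SWNT/CpG, Irak3 in K-Luc, Il1r2, Pycard and the genes given under several treatments were named after their values were seen.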

Additional observations from a re-analysis of the deposited data

Results flagged for a closer look

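For 4 of the 10 genes the response to the oligonucleotide differed between the lines by a test of the difference itself, an interaction of line and treatment fitted with edgeR over both lines. All 4 genes differed with CpG, where 21.9% of all 13350 genes tested were called, and 3 of the 10 with SWNT/CpG, which is near the background of 25.4%. Positive values mean a higher log2 change in RAW-Blue than in K-Luc.

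With CpG, the response of the ST2 gene Il1rl1 differed by 2.11 ± 0.33 (adjusted p = 0.00028 by edgeR), since it rose in RAW-Blue and fell in K-Luc. That of the interleukin-18 accessory receptor gene Il18rap differed by 1.01 ± 0.18 (adjusted p = 0.00037 by edgeR). That of Il18 differed by -0.94 ± 0.25 (adjusted p = 0.0081 by edgeR), with a rise in K-Luc and no call in RAW-Blue. That of Il33 differed by 3.74 ± 1.05 (adjusted p = 0.013 by edgeR). The Il33 value rests on 2 untreated RAW-Blue counts and depends on the prior count. It was 2.89 (adjusted p = 0.053 by edgeR) without RAW-Blue untreated replicate 1 and 1.63 (adjusted p = 0.51 by edgeR) without RAW-Blue CpG replicate 2.

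With SWNT/CpG, Il18rap differed by 0.80 ± 0.18 (adjusted p = 0.0016 by edgeR) and Il1rl1 by 1.29 ± 0.32 (adjusted p = 0.0062 by edgeR). Il33 differed by 4.64 ± 0.97 (adjusted p = 0.00098 by edgeR), again from 2 untreated RAW-Blue counts. Line, treatment time and plating cannot be told apart in these differences.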

How the results depend on the processing

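The alternatives were run on the counts of calls, the called family genes and the called list genes that the rule names. None of these changed direction. Other genes, among them Casp1 in RAW-Blue and Ptgs2 in K-Luc with SWNT/CpG, were not run under them. Of the single genes named, 1176 values under alternatives kept direction and side of the threshold, 233 lost the call, and 3 more had no adjusted p in DESeq2. Of the counts over gene lists, 271 stayed within 1.5 times and 81 moved.

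The counts of the 10 genes called moved as follows, and the cause was not tested. In K-Luc, CpG against untreated (4) gave 2 with DESeq2, 2 in run 2 alone, 2 with replicates 2 and 3 only and 1 with only the groups compared, and 2 to 4 with a library left out (2 without either untreated library). CpG+SWNT/LP against untreated (4) gave 2 with DESeq2, 2 in run 2 alone and 2 with replicates 2 and 3 only, and 2 to 3 with a library left out (2 without either untreated library or CpG+SWNT/LP replicate 1). SWNT/CpG against untreated (3) gave 1 with no filter on low counts, 1 with no run term, 1 in run 2 alone and 5 with only the groups compared, and 1 to 2 with a library left out. SWNT/CpG against CpG (3) gave 0 with no filter on low counts, 0 with no run term, 0 in run 2 alone and 1 with only the groups compared, and 0 to 1 with a library left out. SWNT/CpG against CpG+SWNT/LP (1) gave 0 with no run term, 0 in run 2 alone, 2 with replicates 2 and 3 only and 3 with only the groups compared, and 0 to 1 with a library left out.

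In RAW-Blue, fitting only the groups compared gave 1 for CpG (3), 0 for SWNT/LP (1), 2 for CpG+SWNT/LP (4) and 3 for SWNT/CpG (5) against untreated, and 1 for SWNT/CpG against CpG+SWNT/LP (0). With a library left out these comparisons with untreated gave 1 to 6, 1 to 4, 1 to 5 and 3 to 6, and both comparisons with CpG (1) gave 0 to 1. Between the lines, leaving out a library gave 8 for the untreated groups, 3 to 5 for the CpG response (4) and 3 to 4 for the SWNT/CpG response (3).

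Same-numbered libraries of different groups were compared by the correlation of their deviations from group means. In K-Luc it was 0.0916 to 0.582 over 26 pairs, 25 of them over 0.1, and all 14 libraries correlated best with their own number. In RAW-Blue it was -0.13 to 0.258 over 20 pairs, 4 of them over 0.1. Same-numbered K-Luc libraries thus deviated together in these data, while the labels do not tie the numbers to a shared culture, day or batch and 1 pair lay under 0.1, so the block was kept as an alternative. A replicate block changed the K-Luc count for SWNT/CpG against CpG+SWNT/LP from 1 to 4, and the other counts by at most 1.5 times. With it the Il33 fall in K-Luc with SWNT/CpG against untreated was not called (-0.77, adjusted p = 0.060 by edgeR), and that against CpG+SWNT/LP was (-0.90, adjusted p = 0.015 by edgeR). In RAW-Blue it ended the calls of Il1b with CpG (adjusted p = 0.057 by edgeR) and Il1a with CpG+SWNT/LP (adjusted p = 0.051 by edgeR).

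Depth limits Il1a, Il1b and Il33 in RAW-Blue and Il18r1 and Il1rn in K-Luc, with 0 to 22 counts a library.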
